A study of Homo sapiens with 8 samples.

Results

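The aryl hydrocarbon receptor, its partner, its repressor and its classic target genes were followed across RNA sequencing libraries of MDA-MB-231 cells, an established human line of triple-negative breast cancer cells. The 6 genes were picked by symbol from the 61228 genes of the deposited count table: AHR, ARNT, AHRR, CYP1A1, CYP1B1 and TIPARP. They were chosen because CYP1B1 had the largest log2 rise in knockout gels among genes with a symbol and a mean of at least 5 CPM (read counts scaled to library size with TMM factors), with earlier results of these data known. All 6 were in the table, and 5 passed the filter on low counts; AHRR did not.

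The 8 libraries formed 4 groups of 2. Control cells and cells edited at ETV1, ETV4 and ETV5, which are the PEA3 group of ETS transcription factors, were each grown as monolayers on plastic (2D) or inside gels of collagen I (3D). Guide RNAs came in by nucleofection. The label of both knockout groups and of the control gels names Cas9 as well, while that of the control monolayers names control guides alone. An effect of Cas9 therefore cannot be told apart from that of the knockout in monolayers, nor from that of the gel in control cells. The difference between the knockout effects in gels and in monolayers also holds the control monolayers and shares this limit. The labels do not say whether a knockout group is a pool or a clone, and do not tell if each library is a culture of its own, so p values measure only the spread between these libraries. Gels were digested with collagenase before RNA extraction, and monolayers were not.

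AHR is a ligand-activated transcription factor that waits in the cytoplasm in a chaperone complex. On binding a ligand, such as a dioxin, a polycyclic aromatic hydrocarbon or a tryptophan metabolite, it enters the nucleus, pairs with ARNT and binds xenobiotic response elements. Its best known targets encode the monooxygenases CYP1A1 and CYP1B1, which oxidise aromatic compounds and oestrogens, and 2 of the members close feedback loops: AHRR, a repressor that competes for ARNT, and TIPARP, a mono-ADP-ribosyltransferase that acts on AHR. In breast cells CYP1B1 is known for making the 4-hydroxy form of oestradiol, and ARNT also serves the hypoxia-inducible factors as their constant partner.

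The promoters of the targets whose levels differed between the groups are shown here for the receptor's core element. RefSeq promoter windows (GRCh38.p14, 250 bases before to 50 after a start site) were found for 5 of the 6 members, in 8 windows, and CYP1B1 was the member with no entry. The core GCGTG was searched on both strands (CACGC on the other); these letters are also one form of the core bound by hypoxia-inducible factors. The 250 bases before the start of CYP1A1 (chr15:74725529-74725778, minus strand) and before the first of 3 listed starts of TIPARP (chr3:156674340-156674589, plus strand) follow, 5′ to 3′, with each core in capitals.
CYP1A1: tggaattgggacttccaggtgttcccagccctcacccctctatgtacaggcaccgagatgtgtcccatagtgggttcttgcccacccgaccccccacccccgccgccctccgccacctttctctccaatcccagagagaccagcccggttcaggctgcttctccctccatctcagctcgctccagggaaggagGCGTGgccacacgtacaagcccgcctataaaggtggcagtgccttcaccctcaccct
TIPARP: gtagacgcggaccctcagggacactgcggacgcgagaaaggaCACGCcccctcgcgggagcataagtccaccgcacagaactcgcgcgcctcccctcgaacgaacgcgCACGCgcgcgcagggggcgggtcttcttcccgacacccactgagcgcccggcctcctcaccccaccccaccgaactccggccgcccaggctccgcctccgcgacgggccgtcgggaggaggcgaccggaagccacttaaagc

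The CYP1A1 window held 1 core, beginning at position -57 from the start site. The TIPARP window shown held 2, at -208 and -142, both on the opposite strand. The other TIPARP windows held none, and sequence outside the windows was not searched. The AHR window held 1 core after its start site, at position 38, both AHRR windows held cores, and the ARNT window held none. Of 35116 windows of the same length in the table, 36.5% held this core on at least 1 strand. The core ACGTG, the other form bound by hypoxia-inducible factors, was found in 21.4% of all windows and among the members in those of CYP1A1 and AHR; in AHR the 2 matches are the strands of 1 palindrome. An ETS core written as CCGGAA stood in 17.2% of all windows and among the members in the TIPARP window shown, at position -18. A match is a description of letters and not of binding.

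Depth was similar across groups: the libraries held 15824504 to 23896899 counts, and mitochondrially encoded genes took 2.65 to 4.47% of them. Transcripts of the edited genes were read first. ETV1 ran from 200.2 to 222 CPM in the 4 control libraries and from 136 to 151 in the 4 knockout libraries, ETV4 from 81.3 to 96.8 and from 61.2 to 67.1, and ETV5 from 109.6 to 119 and from 115 to 117. ETV1 and ETV4 transcripts were thus lower in every knockout library than in every control library, and those of ETV5 overlapped. Read counts per gene show neither the edits nor the protein, so the extent of the knockout was not measured. Markers of the line, such as VIM at 5284 to 7407 CPM, were present in every library, ESR1 and PGR had at most 2 counts, and EPCAM (12.9 to 23 CPM) and GATA3 (7.53 to 12.7 CPM) were low.

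CYP1B1 was the member with the widest range. It stood at 7.57 and 9.31 CPM in the control monolayers and at 23.8 and 25.2 CPM in the knockout monolayers, at 10.6 and 9.93 CPM in the control gels, and at 39 and 39.8 CPM in the knockout gels. Behind these values are 150 to 749 counts per library. No group overlapped another, and the order was control monolayers, control gels, knockout monolayers, knockout gels. The gene lies on chromosome 2 (38066973 to 38109902, minus strand, GRCh38, GENCODE v29).

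**Figure D1:**
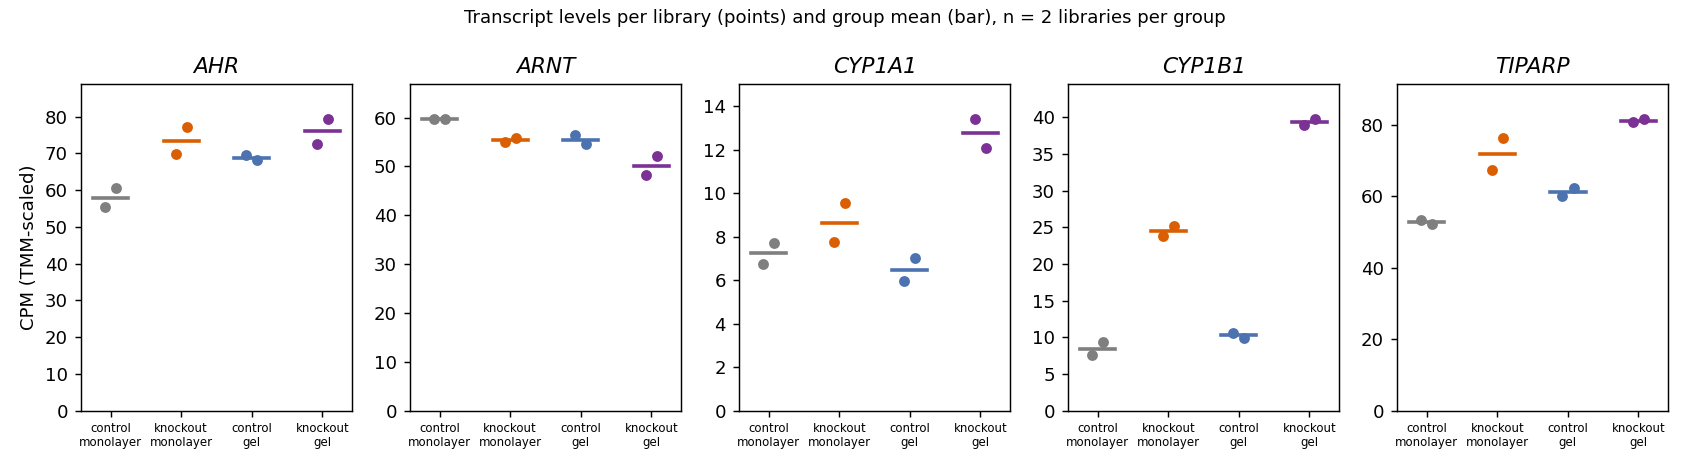
TMM-scaled CPM (vertical axis, from 0) of the 5 members that passed the filter, in each of the 8 libraries (points) with the mean of the 2 libraries of a group (bar). CYP1B1 is at 7.57 to 10.6 CPM in the control libraries and at 23.8 to 39.8 CPM in the knockout libraries, while ARNT stays between 48.2 and 59.8 CPM.

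The monolayers hold none of the libraries by which CYP1B1 was chosen, and its difference was tested there. The fit took its spread from all 8 libraries, gels included, and the choice rested on the same knockout. The p value is therefore not independent of the choice. CYP1B1 rose from 8.44 ± 1.23 to 24.5 ± 0.988 CPM in the knockout monolayers (SD, n = 2), by 1.56 ± 0.11 on the log2 scale (SE of the edgeR fit, adjusted p = 1.2e-13). This is a fold of 2.95, with a 95% interval of 2.54 to 3.43, and 60 of 15568 tested genes had a larger log2 fold change. In gels, the comparison that chose it, CYP1B1 was at 10.3 ± 0.482 CPM in control and 39.4 ± 0.602 CPM in knockout cells, a log2 difference of 1.94. That value is a description and carries no test. By the ranking that chose it, the next genes below were OASL at 1.88 and CEMIP at 1.67. Without the limits of that ranking, 19 of 15568 tested genes had a larger log2 difference in gels, SERPINB2 among them.

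CYP1B1 also differed between cultures, again as a description because these values share the gel libraries. From monolayers to gels its log2 difference was 0.31 in control cells and 0.68 in knockout cells, with no overlap of the groups in either. An antisense gene, CYP1B1-AS1, overlaps it on the other strand, the library kit keeps the strand, and no source used here gives the strand setting of the counting. CYP1B1-AS1 had 1 to 6 counts per library, against at least 150 for CYP1B1.

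CYP1A1, the most inducible of the receptor's target monooxygenases, followed another course. Its levels were 6.76 and 7.69 CPM in the control monolayers, 7.73 and 9.54 in the knockout monolayers, 5.95 and 7.02 in the control gels and 13.4 and 12.1 in the knockout gels, from 124 to 245 counts. The knockout gels stood above all other libraries, and the 2 control groups overlapped. In monolayers the highest control library and the lowest knockout library differed by less than the spread within either group.

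CYP1A1 did not pass in the knockout monolayers, with a log2 difference of 0.28 ± 0.14 (95% interval -0.02 to 0.57, adjusted p = 0.194). In gels, knockout cells had 12.7 ± 0.961 CPM against 6.49 ± 0.756 CPM in control cells, a log2 difference of 0.98 that is given without a test. From monolayers to gels CYP1A1 rose by 0.55 ± 0.13 in knockout cells (adjusted p = 0.0012). In control cells it did not pass (log2 -0.15, 95% interval -0.45 to 0.16, adjusted p = 0.499). The knockout difference in gels minus that in monolayers came to 0.70 on the log2 scale, a value that holds the comparison by which the genes were chosen and so has no test; 6.6% of all tested genes were called for this difference. CYP1A1 lies on chromosome 15 (74719542 to 74725610, minus strand), near its paralog CYP1A2, which had at most 3 counts in any library.

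TIPARP followed the group order of CYP1B1 over a narrower range. It was at 53.5 and 52.2 CPM in the control monolayers, 67.4 and 76.5 in the knockout monolayers, 60.1 and 62.4 in the control gels, and 80.8 and 81.8 in the knockout gels. No group overlapped another. In monolayers TIPARP rose by 0.44 ± 0.065 on the log2 scale with the knockout (adjusted p = 3.15e-06), a fold of 1.36 (95% interval 1.24 to 1.49). In gels the log2 difference was 0.41, without a test. From monolayers to gels TIPARP rose by 0.21 ± 0.065 in control cells (adjusted p = 0.0149) and by 0.18 ± 0.063 in knockout cells (adjusted p = 0.026). Both calls were lost in 7 of 18 alternative settings, over adjusted p ranges of 0.00895 to 0.162 and 0.00642 to 0.326. In control cells these were upper-quartile and library-size scaling, DESeq2, and leaving out any of the 4 libraries compared: control monolayer 1 (0.0855) or 2 (0.0645), and control gel 1 (0.052) or 2 (0.123). In knockout cells they included leaving out knockout monolayer 1 (0.326) or knockout gel 2 (0.108). TIPARP lies on chromosome 3 (156673235 to 156706770, plus strand).

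The receptor gene itself spanned a narrower range than CYP1B1. AHR was at 55.3 and 60.6 CPM in the control monolayers, 69.8 and 77.1 in the knockout monolayers, 69.5 and 68.1 in the control gels and 72.5 and 79.5 in the knockout gels. The control monolayers were the lowest group, and the 2 knockout groups overlapped each other. AHR rose by 0.35 ± 0.066 on the log2 scale with the knockout in monolayers (adjusted p = 0.000174), a fold of 1.27 (log2 95% interval 0.21 to 0.48). In gels the log2 difference was 0.14, without a test. From monolayers to gels AHR rose by 0.25 ± 0.066 in control cells (adjusted p = 0.00388), a comparison that shares the control monolayers with the one above. This call was lost without control monolayer 1 (adjusted p = 0.18), without control gel 1 (0.0559) and with scaling by library size alone (0.0543), in a range of 0.000314 to 0.18. In knockout cells AHR did not pass between cultures (log2 0.05, 95% interval -0.08 to 0.18, adjusted p = 0.596). The gene lies on chromosome 7 (16916359 to 17346152, plus strand).

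ARNT, the partner, went the other way by small amounts. It was at 59.8 and 59.8 CPM in the control monolayers, 55 and 55.8 in the knockout monolayers, 56.4 and 54.6 in the control gels and 48.2 and 52.1 in the knockout gels. The control monolayers were the highest and the knockout gels the lowest group, and the middle groups overlapped. ARNT did not pass in any tested comparison: the log2 differences were -0.11 with the knockout in monolayers (95% interval -0.24 to 0.02, adjusted p = 0.257), -0.11 from monolayers to gels in control cells (-0.24 to 0.02, adjusted p = 0.219) and -0.14 in knockout cells (-0.28 to -0.01, adjusted p = 0.0808). The last passed with upper-quartile scaling, with library size alone and with a filter at 1 CPM in every library, in a range of 0.012 to 0.512, and that in control cells passed with library size alone (0.0251). The knockout difference in gels was -0.15, without a test. ARNT lies on chromosome 1 (150809705 to 150876768, minus strand).

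AHRR, the repressor, was hardly detected. It had 2 counts in control monolayer 1 and 1 count in knockout monolayer 2, and 0 in the other 6 libraries. A count of 0 allows up to 0.186 CPM in the shallowest library (3 counts, counting error only). Whether AHRR differed between the groups was not detectable at this depth. The gene lies on chromosome 5 (304176 to 438291, plus strand).

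Read together in monolayers, 3 of 5 tested members rose with the knockout (CYP1B1, TIPARP and AHR) and none fell, where 9.6% of all 15568 tested genes were called higher and 9.6% lower. CYP1B1 was chosen by its rise with the same knockout in gels, so its call cannot be set against these shares. Of all tested genes, 9.11% were called in the same direction in both cultures. Leaving out CYP1B1, 2 of 4 members rose. The groups of all 5 did not overlap there, as for 56.9% of all tested genes. The 3 calls held in each of 18 alternative settings. From monolayers to gels, leaving out CYP1B1, AHR and TIPARP rose in control cells, and CYP1A1 and TIPARP rose in knockout cells, 2 of 4 tested members each. Both comparisons share gel libraries with the one by which CYP1B1 was chosen. The shares of all tested genes called higher in those comparisons were 16% and 20.1%, and 10.7% and 17.9% were called lower. This split depends on the scaling: 2486 genes were called higher and 1672 lower in control cells, but 1699 and 2213 with upper-quartile factors and 1239 and 2804 with library size alone. In knockout cells the 3122 higher and 2793 lower became 2293 and 3360, and 2089 and 3539. Groups did not overlap for 4 of 5 members in each, as for 64.4% and 67.6% of all tested genes. With the knockout in gels the groups of all 5 members did not overlap, but that was so for 61.7% of all tested genes. The length and GC correction moved the split of calls there from 1786 higher and 1935 lower to 3194 and 1484.

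**Figure D2:**
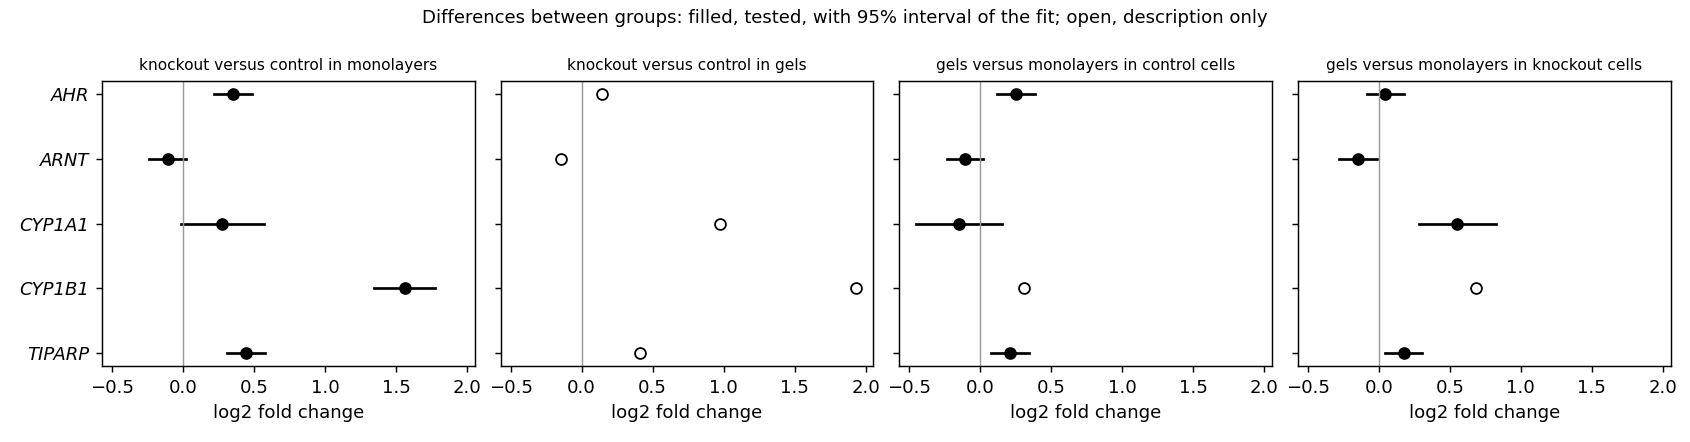
Log2 fold changes (horizontal axis) of the 5 members in the 4 comparisons between pairs of groups. Filled points were tested and carry the 95% interval of the edgeR fit. Open points are descriptions: all members with the knockout in gels, and CYP1B1 between cultures. The filled points between cultures also share gel libraries with the comparison by which CYP1B1 was chosen. In monolayers the intervals of CYP1B1, TIPARP and AHR lie above 0, and those of CYP1A1 and ARNT reach it.

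Levels of different genes were compared per kilobase of exon (GENCODE v29, which may not be the annotation the authors counted with). In control monolayers TIPARP stood at 10.5, ARNT at 9.17 and AHR at 7.17 CPM per kb, above CYP1A1 at 2.10 and CYP1B1 at 1.26 and 1.55 in its 2 libraries. Between the monooxygenases the order turned with the knockout on this scale, which rests on the exon lengths used. In CPM without division by length, CYP1B1 had the higher mean in control monolayers (8.44 against 7.23) and control gels (10.3 against 6.49) as well. Per kilobase the values were as follows. CYP1A1 was the higher in both control monolayers (1.97 and 2.24 against 1.26 and 1.55 CPM per kb), they overlapped in the control gels, and CYP1B1 was the higher in both knockout monolayers (3.96 and 4.19 against 2.25 and 2.78) and both knockout gels (6.48 and 6.62 against 3.91 and 3.51). In the knockout gels CYP1B1, at 6.55 ± 0.1 CPM per kb, came close to ARNT at 7.69 ± 0.426.

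Over the 8 libraries, the log2 levels of CYP1B1 had Pearson correlations of 0.95 with TIPARP, 0.89 with CYP1A1 and 0.83 with AHR. TIPARP had 0.90 with AHR and 0.84 with CYP1A1. The pair of AHR and CYP1A1 had the lowest positive value, 0.61. ARNT had negative correlations with each of the other members, from -0.69 to -0.85. The libraries share their groups and scaling, and 246 of 10717 other genes with a mean of at least 5 CPM had a correlation over 0.9 with CYP1B1, so these are descriptions.

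The genes whose levels were most like those of CYP1B1 over the 8 libraries were TARBP2, a partner of Dicer in microRNA processing (Pearson 0.99), the connexin gene GJA3 (0.99), the ubiquitin-like interferon-induced ISG15 (0.99), the ERBB ligand gene NRG1 (0.99) and OST4, a subunit of the oligosaccharyltransferase (0.99). Their ranges were narrower than that of CYP1B1. ISG15 went from 19.6 ± 1.53 CPM in control monolayers to 31 ± 1.23 in knockout monolayers, and was at 19.8 ± 0.711 in control gels and 40.5 ± 1.15 in knockout gels. NRG1 went from 107 ± 3.02 to 153 ± 4.68 CPM and was at 115 ± 3.07 and 185 ± 4.94 CPM in gels. Most like AHR were MYL6, GNG11, CHST11, UQCR11 and CALR (0.97 to 0.99), and most like TIPARP were TFPI2, PTPRK, H2AC6, NIFK and SDSL (0.98 to 0.99). By rank correlation 22, 10 and 10 genes came first or tied for the first places, and they held 0, 1 and 1 of the 5 named for CYP1B1, AHR and TIPARP.

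**Figure D3:**
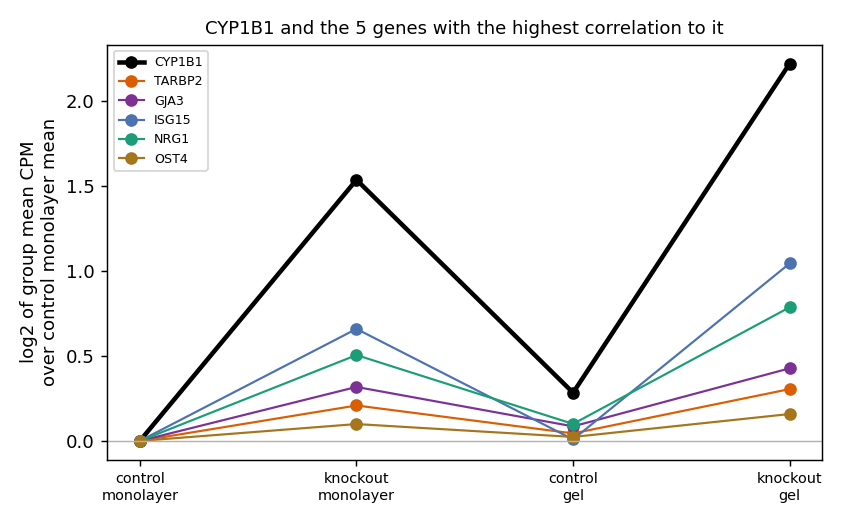
Log2 of the mean CPM of each group over the mean in control monolayers (vertical axis) for CYP1B1 and the 5 genes with the highest Pearson correlation with it over the 8 libraries. The lines share a shape, and CYP1B1 spans the widest range.

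Of 22 other genes reported to respond to AHR, 16 were tested. In monolayers 9 rose and 2 fell, where 9.6% of all tested genes were called each way. In gels 9 rose and 1 fell, where 11.5% were called higher and 12.4% lower. SCIN was at 2.59 ± 0.367 CPM in control and 1.03 ± 0.0747 CPM in knockout monolayers. The median log2 fold changes were 0.18 and 0.37, beside 0.0127 and -0.00111 for all tested genes. The 7 that rose in both cultures were SERPINB2, PTGS2, IL6, HES1, NQO1, ABCG2 and SLC7A5, and ALDH3A1 fell in both; 9.11% of all tested genes were called in the same direction in both. This list was chosen with earlier results known, and several of its genes, such as IL1B, IL6 and PTGS2, are best known as targets of NF-kB.

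Genes of the detoxification battery did not move as one. NQO1, a quinone reductase also driven by NRF2, rose from 228 ± 10.3 to 293 ± 29.3 CPM in monolayers (log2 0.36 ± 0.054, adjusted p = 1.06e-05) and was at 202 ± 1.23 and 302 ± 9.64 CPM in gels (log2 0.58 ± 0.054, adjusted p = 1.94e-09). ALDH3A1, an aldehyde dehydrogenase of the same battery, fell from 27.6 ± 0.274 to 18.1 ± 1.20 CPM in monolayers (log2 -0.60 ± 0.093) and from 16.5 ± 0.00706 to 10.7 ± 1.18 CPM in gels (log2 -0.63 ± 0.11). ABCG2, an efflux transporter, rose by 0.28 and 0.40. NFE2L2, the gene of NRF2 itself, rose in monolayers by 0.17 and did not pass in gels (log2 0.15, adjusted p = 0.0542). CYP1A2, UGT1A1, UGT1A6, GSTA1 and GSTA2 were too low to test, with at most 3 counts in any library.

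SERPINB2, which encodes an inhibitor of plasminogen activators, had the largest log2 fold changes of the list from a low base. It rose from 0.477 ± 0.236 to 3.32 ± 0.247 CPM in monolayers (log2 2.69 ± 0.32) and from 0.693 ± 0.029 to 5.52 ± 1.14 CPM in gels (log2 2.99 ± 0.28). PTGS2, the inducible prostaglandin synthase, rose by 1.57 in monolayers and 0.74 in gels, and HES1, a Notch-responsive repressor, by 0.89 and 0.41. IL1B rose in monolayers (log2 2.22 ± 0.17) and did not pass in gels (log2 -0.07 ± 0.23, adjusted p = 0.869).

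**Figure D4:**
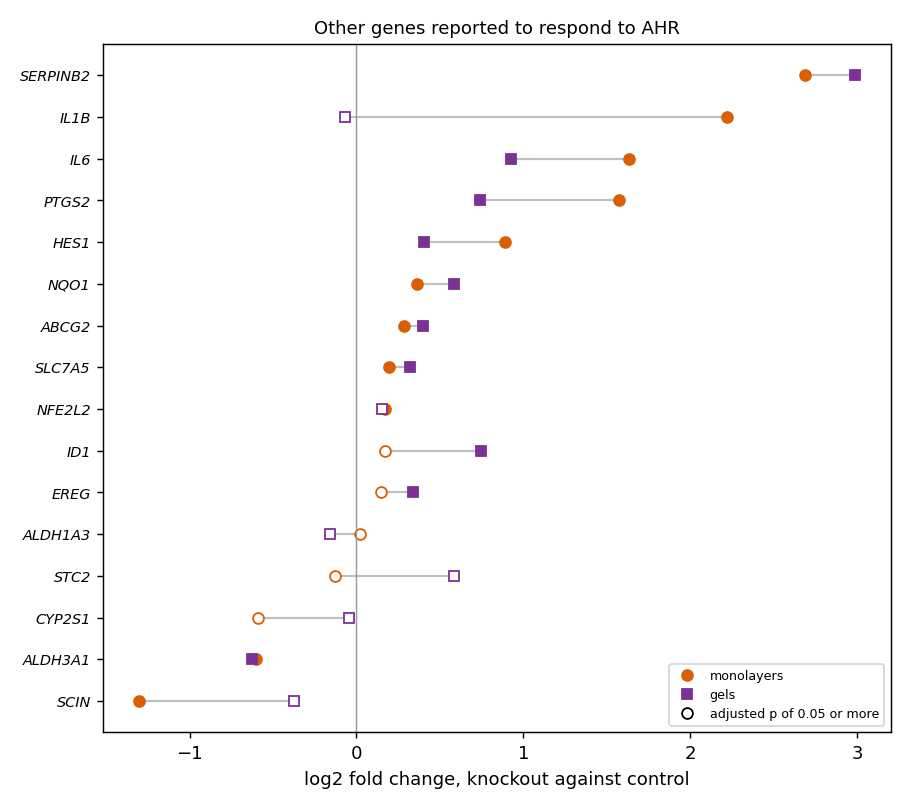
Log2 fold change of knockout against control (horizontal axis) in monolayers (circles) and gels (squares) for the 16 tested genes reported to respond to AHR; open symbols did not pass. SERPINB2 stands at 2.69 and 2.99 at one end, and ALDH3A1 at -0.60 and -0.63 near the other.

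Of the 18 genes of the receptor's complex and its coactivators, all tested, 1 rose in knockout monolayers (KPNA2, an importin, by 0.18) and 6 rose in knockout gels, with none lower in either. The shares of all tested genes called higher were 9.6% and 11.5%. The 6 included the chaperone gene HSP90AA1, by 0.34, and the cochaperone gene PTGES3, by 0.14. The gel count was 2 without control gel 1, 3 without control gel 2 and 1 without knockout gel 2, and a length and GC correction gave 11. The monolayer count of 1 was 2 without control monolayer 2, and 1 gene fell without knockout monolayer 2.

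The enzymes that open the breakdown of tryptophan towards AHR ligands were hardly detected. Of 17 genes of tryptophan breakdown, uptake and use, 8 were tested, and IDO1, IDO2 and TDO2, which open the pathway, had at most 5 counts in any library. Those tested included the amino acid carrier genes SLC7A5, SLC3A2 and SLC1A5 and the tRNA synthetase gene WARS1, which are not enzymes of this breakdown. SLC7A5 was also counted among the genes reported to respond to AHR. KYNU, the kynureninase gene, rose with the knockout from 5.83 ± 0.0981 to 10.3 ± 1.44 CPM in monolayers (log2 0.83 ± 0.15) and was at 4.80 ± 0.272 and 8 ± 1.09 CPM in gels (log2 0.73 ± 0.16). SLC7A5, a carrier of tryptophan and other large neutral amino acids, rose by 0.19 and 0.32, and AFMID, the kynurenine formamidase gene, fell by 0.28 and 0.46. In all, 2 rose and 1 fell in monolayers, where 9.6% of all tested genes were called each way, and 4 rose and 1 fell in gels, where 11.5% were called higher and 12.4% lower. Without control monolayer 1 or knockout monolayer 1 only 1 rose in monolayers, and without control monolayer 2 or knockout monolayer 2 none fell.

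CYP1B1 was set beside the other cytochrome P450 genes. Of 54 others in the table, 17 were tested, of which 2 rose and 3 fell in knockout monolayers (9.6% of all tested genes each way) and 2 rose and 4 fell in knockout gels (11.5% and 12.4%). The median log2 fold changes were -0.01 and -0.31. CYP3A5, a drug-metabolising enzyme, fell from 2.34 ± 0.503 to 0.545 ± 0.00122 CPM in monolayers (log2 -2.12 ± 0.35) and from 2.22 ± 0.354 to 0.163 ± 0.0798 in gels (log2 -3.72 ± 0.46). CYP24A1, which breaks down vitamin D, fell by 0.40 and 0.72, and CYP51A1, a sterol demethylase of cholesterol synthesis, by 0.58 and 0.65. CYP26B1, which clears retinoic acid, rose by 0.31 and 0.28, and CYP27C1 rose from 0.908 ± 0.0320 to 2.15 ± 0.0337 CPM in monolayers. The 2 with the highest mean levels, CYP20A1 and CYP4V2, differed by 0.14 and 0.13 in monolayers and did not pass there; CYP4V2 rose in gels, by 0.20. The count of rises in monolayers was 0 without control monolayer 1 and 1 without knockout monolayer 1, and that in gels was 0 without control gel 1, control gel 2 or knockout gel 1, 1 without knockout gel 2 and 1 without knockout monolayer 2.

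**Figure D5:**
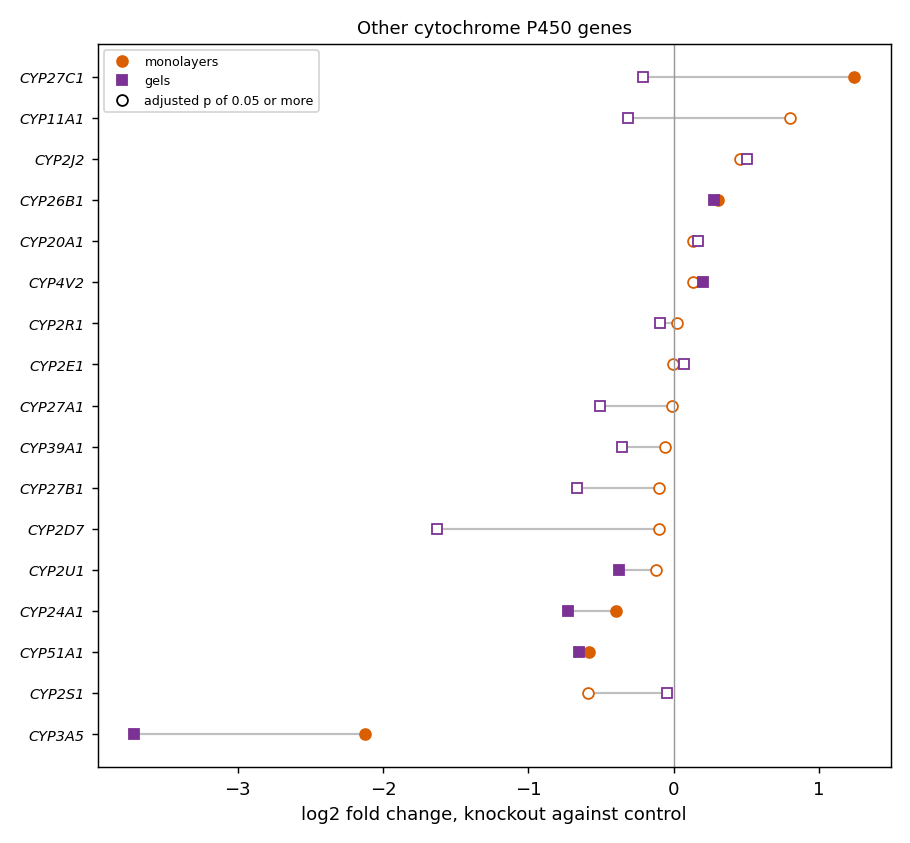
Log2 fold change of knockout against control (horizontal axis) in monolayers (circles) and gels (squares) for 17 tested cytochrome P450 genes other than CYP1A1 and CYP1B1; open symbols did not pass. CYP3A5 lies farthest below 0, at -2.12 and -3.72, and CYP27C1 highest in monolayers at 1.24.

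Of 19 genes that feed P450 enzymes or handle oestrogens, 13 were tested. In monolayers 2 rose and 1 fell, beside 9.6% of all tested genes each way, and in gels 1 rose and 2 fell, beside 11.5% and 12.4%, so these counts are near the background. POR, the reductase that passes electrons to P450 enzymes, rose by 0.23 in knockout monolayers (adjusted p = 0.0261) and did not pass in gels (log2 -0.16). GPER1, a membrane oestrogen receptor gene, rose by 0.59 in monolayers and HSD17B7, of cholesterol and oestradiol synthesis, fell by 0.64 and 0.80 in monolayers and gels. The count of 2 rises in monolayers was 1 without control monolayer 1, control monolayer 2 or knockout monolayer 1 and 0 without knockout monolayer 2. In gels no rise was left without control gel 1, control gel 2 or knockout gel 1, and 1 fall without knockout gel 2.

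TIPARP was set beside the other members of the PARP family. All 15 were tested, and 2 rose (PARP10 and PARP12, by 0.28 each) and 1 fell (TNKS, by 0.25) in knockout monolayers, while 2 rose and 1 fell in gels, none of them in the same direction in both. These counts are near the shares of all tested genes (9.6% each way in monolayers, 11.5% higher and 12.4% lower in gels). These counts ran from 0 to 2 rises and 0 to 3 falls in monolayers over the alternatives, where leaving out knockout monolayer 1 left no rise, any other monolayer library 1 rise, control or knockout monolayer 2 no fall, and knockout gel 1 gave 3 falls. In gels no rise was left without control gel 1, control gel 2 or knockout gel 2, and 1 without control or knockout monolayer 2. No fall was left in gels without any 1 of the 4 gels, control monolayer 1 or knockout monolayer 1. PARP10 and PARP12 are also induced by interferon.

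ARNT belongs to the bHLH-PAS family. Of 19 other members, 15 were tested. EPAS1, which encodes HIF-2 alpha, rose by 0.45 ± 0.068 in knockout monolayers (adjusted p = 5e-06) and did not pass in gels (log2 0.17, adjusted p = 0.0883). NPAS2, a circadian factor, fell in both cultures, by 0.35 and 0.87. ARNT2, the paralog of ARNT, did not pass in either. In all, 1 rose and 2 fell in monolayers and 2 rose and 1 fell in gels, near the shares of all tested genes (9.6% each way, and 11.5% higher and 12.4% lower). The falls in monolayers dropped to 1 without control monolayer 1 or 2, knockout monolayer 1 or control gel 1 or 2, and 2 genes rose there without knockout monolayer 1. The rises in gels dropped to 1 without control monolayer 2, knockout monolayer 2, control gel 1 or 2 or knockout gel 2. Of 20 hypoxia targets, whose factors need ARNT, 7 fell and 2 rose in knockout monolayers and 16 fell and 1 rose in knockout gels, with medians of -0.15 and -0.76. Of all tested genes 9.6% were called each way in monolayers, and 11.5% higher and 12.4% lower in gels. The medians of all tested genes were 0.0127 and -0.00111. CA9, a carbonic anhydrase, was at 35.6 ± 6.20 and 19.5 ± 0.899 CPM in monolayers and at 43.1 ± 3.55 and 3.61 ± 0.0748 CPM in gels. The part of these genes' fall in the levels of CYP1B1 and CYP1A1 was not tested.

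CYP1B1 is also abundant in fibroblasts, so their markers were read in the same libraries. Of 12 fibroblast markers, 5 had at most 3 counts in every library, among them DCN, THY1, POSTN and DPT, and 3 passed the filter. Their summed level was 21.1 to 21.4 CPM in control monolayers, 26.3 to 27.7 in knockout monolayers, 15.5 to 15.9 in control gels and 14.4 to 16 in knockout gels, and most of it was COL1A1 and PDGFRB. With the knockout the sum was higher in monolayers and overlapped in gels. CYP1B1 was higher in both cultures, by 1.56 on the log2 scale in monolayers and by 1.94 in gels, the latter without a test. The part of these markers' source in the level of CYP1B1 was not tested. Of 8 leukocyte and 6 endothelial markers, 3 and 4 had at most 3 counts in every library, and 4 and 1 passed the filter. LYZ reached 6.2, CSF1R 5.51, CD14 2.17 and PECAM1 7.88 CPM. Of 8 markers of luminal breast lines, 3 had at most 3 counts in every library and 5 passed. Among them KRT19 was at 400 to 727 CPM and XBP1 at 64 to 78.8 CPM. In bulk RNA, a change in the number of cells that express a gene and a change in RNA per cell cannot be told apart.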

How the data were processed

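Messenger RNA of 8 MDA-MB-231 libraries was measured. Libraries were made with TruSeq Stranded mRNA, per the labels' protocols. The authors deposited 1 table of whole-number read counts by gene symbol, with a column for each library. The submitters' processing notes name FastQC 0.11.9, STAR 2.7.9a, featureCounts, R 4.1.1 and hg38. Annotation and strand setting: not given in the sources used here.

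From these counts, 15568 of 61228 genes passed filterByExpr (minimum count 10). They were scaled by TMM and tested in R 4.3.3 with edgeR 4.0.16 (quasi-likelihood F-test, robust), as group means over all 8 libraries, with Benjamini-Hochberg adjustment over all tested genes and a threshold of 0.05. The fit has 4 residual degrees of freedom and, for the members, 34.3 in all, so the p values borrow most of their precision from other genes. The common dispersion was 0.00163. Library totals of 15824504 to 23896899 limit the precision of the low members. Replicate numbers did not pair the groups (correlations of replicate differences -0.0629 to 0.0817). The steps were checked on simulated data. Replicate libraries differed beyond counting error (chi-squared per degree of freedom 2.48 to 6.03).

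The members and lists were chosen with earlier results of these data known. Genes named from each list were those called in the same direction in both cultures and up to 4 with the smallest adjusted p in monolayers; of P450 genes also the 4 highest; a few others were named after their values were seen (NFE2L2, HSP90AA1, PTGES3, ARNT2, CYP1A2, ID1 and other genes with a culture-dependent difference, and those too low to test). Lists are given as counts and medians. Alternatives were other scalings, filters, DESeq2 1.42.0, a replicate block, fits on the 4 libraries compared, each library left out and, added after seeing the data, a length and GC correction.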

Additional observations from a re-analysis of the deposited data

Results flagged for a closer look

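Each of the 116 tested genes of the lists was taken through edgeR's interaction test, whose value is the log2 knockout difference in gels minus that in monolayers. The control monolayers, whose label names no Cas9, enter this value. It passed for 28 of them, 5 higher and 23 lower, where 6.6% of all tested genes passed; the lists were chosen with earlier results known. Hypoxia targets made up 17 of the 28. The value was -2.73 for CA9 (adjusted p = 1.15e-10), -1.72 for NDRG1 (8.19e-07), -1.09 for BNIP3 (9.25e-13), -0.85 for LOX (4.08e-07), -0.78 for BNIP3L (1.56e-08), -0.71 for PGK1 (5.77e-09) and -0.68 for PDK1 (0.000107), each of which fell in both cultures. It was -1.39 for PFKFB4 (adjusted p = 1.56e-08), -1.11 for EGLN3 (0.0279), -0.94 for P4HA1 (1.01e-09), -0.75 for LDHA (1.01e-09), -0.60 for P4HA2 (4.8e-05), -0.56 for KDM3A (0.000962) and -0.47 for PFKFB3 (0.000167), which fell in gels and did not pass in monolayers. It was -0.54 for VEGFA (adjusted p = 5.73e-07) and -0.42 for SLC2A1 (0.000126), which rose in monolayers and did not pass in gels. ADM went the other way, at 0.54 (adjusted p = 0.000171).

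Of the genes reported to respond to AHR, the value was -2.29 for IL1B (adjusted p = 8.55e-07), -0.83 for PTGS2 (0.000138) and -0.48 for HES1 (0.023). ID1, an inhibitor of bHLH factors, had 0.58 (adjusted p = 0.000371), with a rise in gels (log2 0.75) and a log2 difference of 0.17 in monolayers that did not pass. In the other lists it was 0.30 for HSP90AA1 (adjusted p = 0.00201), 0.25 for MED1 (0.0343), 0.33 for PARP2 (0.014), -0.52 for NPAS2 (5.43e-05), -0.93 for GPER1 (0.00666), -0.39 for POR (0.0161) and -0.35 for CYB5R3 (0.00789).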

How the results depend on the processing

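The 18 alternatives gave 445 recomputed values of member fold changes, of which 418 kept their direction and side of the threshold or moved by less than the replicate spread. CYP1B1 in monolayers stayed between 1.38 and 1.70 on the log2 scale, and 3 members were called there in all 18. AHR from monolayers to gels in knockout cells, not called, turned to -0.0052 with upper-quartile factors and -0.019 with library size alone, and ran from -0.024 to 0.13 on leaving out a library, below 0 without knockout monolayer 1 or knockout gel 2. Members called from monolayers to gels in control cells were 1 with upper-quartile factors and 1 with DESeq2. With library size alone 1 was called too, but it was a fall of ARNT, and both rises were lost. In knockout cells 1 was called with DESeq2 and 1 in a fit of only the 4 libraries compared. With upper-quartile factors, library size alone or the filter at 1 CPM, a fall of ARNT took the place there of the rise of TIPARP. Calls were also lost on leaving out a library, as given above for AHR and TIPARP. TIPARP then ran from 0.19 to 0.24 in control cells and from 0.099 to 0.27 in knockout cells on the log2 scale. The cause was not tested.

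Genes called in all were 2989 (knockout in monolayers), 3721 (knockout in gels), 4158 (gels in control cells), 5915 (gels in knockout cells) and 1028 (interaction). DESeq2 gave 1741, 2386 and 2364 for the first 3 and 554 for the interaction. On leaving out a library the counts ran from 1848 to 3224, 2106 to 3914, 2144 to 4501, 4191 to 6028 and 413 to 1334. The replicate block gave 3187, 3937, 4435, 6108 and 1203 and changed no member's call, with CYP1B1 in monolayers at 1.56; the numbers pair nothing in the labels. The length and GC correction, added after seeing the data, covered 13395 genes; there the interaction calls were 1058 higher and 395 lower, against 415 and 613, and gels in knockout cells 4092 and 2064. Of 1424 list counts recomputed, 196 moved by more than 1.5 times. AHRR and other genes near the floor are limited by depth.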
